A study of Mus musculus with 12 samples.

Results

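Chemokine receptors and the sphingosine 1-phosphate receptor S1pr1 are read here across peptide and dose in 5CC7 T cells. The genes were Ccr9, Ccr6, Ccr7, Ccr4, Cxcr4, Cxcr3 and S1pr1, and a probe set was taken for a gene where its only symbol in the platform annotation was that gene. All 7 genes were on the array, with 9 of its 22690 probe sets: 3 for Ccr9 and 1 for each of the others. Of these, 7 probe sets for 6 genes lay above the intensity filter and were tested. The probe set of Ccr4 and the dimmest one of Ccr9 lay under it.

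The cells were T cells carrying the transgenic 5CC7 T cell receptor, which recognises a peptide of moth cytochrome c. Per the labels, 1000000 of them went into B10.A mice by the tail vein, and the mice then received peptide in PBS by the same route. The 4 groups were 0.2 µg of 102S, 2 µg of 102S, 0.2 µg of MCC and 2 µg of MCC, where the series text names MCC the strong agonist and 102S the weak agonist of this receptor. At 48 h the lymph nodes were pooled and the 5CC7 cells sorted by FACS, so cells that had left the nodes are not in the samples. Each group had 3 arrays, and unstimulated cells were not analysed here. Nothing in the labels says whether replicates came from separate animals, so a p-value here reflects the spread of these samples alone.

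Chemokine receptors are 7-transmembrane receptors that couple to inhibitory G proteins and steer T cells along gradients of their ligands. Ccr7 follows Ccl19 and Ccl21 into and within the lymph node T zone, and Cxcr4 follows Cxcl12. S1pr1 senses sphingosine 1-phosphate, which is high in lymph and blood, and is needed for lymphocytes to leave the node. Ccr9 answers Ccl25 and directs T cells to the small intestine, Ccr6 answers Ccl20 and marks Th17 cells and other subsets, and Cxcr3 and Ccr4 are typical of Th1 cells and of Th2 and regulatory T cells. Klf2 is a transcription factor known to drive S1pr1 in resting T cells.

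Promoter sequences from RefSeq on the build GRCm38.p6 were in the tables used for 5 of the 7 genes, with 6 windows, of which Ccr6 had 2. The 250 bases before the annotated start are printed for Cxcr4, Ccr9 and Ccr6, the receptors with the widest differences between groups. Cxcr4 lies on the minus strand (chr1:128592300-128592549), Ccr9 on the plus strand (chr9:123766961-123767210) and the first window of Ccr6 on the plus strand (chr17:8235793-8236042). Capitals mark matches on either strand to motifs named for the families that bind them: CACCC (KLF), TGANTCA (AP-1), AGGTCA (ROR), GCGTG (AHR) and GTAAACA (FOXO).
Cxcr4: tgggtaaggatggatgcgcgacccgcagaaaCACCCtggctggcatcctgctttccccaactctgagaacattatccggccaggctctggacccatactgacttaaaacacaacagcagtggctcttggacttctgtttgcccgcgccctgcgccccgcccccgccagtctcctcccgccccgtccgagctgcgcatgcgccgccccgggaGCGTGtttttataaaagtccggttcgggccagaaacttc
Ccr9: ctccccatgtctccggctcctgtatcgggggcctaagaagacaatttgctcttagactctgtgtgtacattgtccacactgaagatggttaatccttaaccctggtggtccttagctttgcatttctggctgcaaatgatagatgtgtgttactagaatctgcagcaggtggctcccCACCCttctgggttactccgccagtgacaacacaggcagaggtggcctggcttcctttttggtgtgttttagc
Ccr6: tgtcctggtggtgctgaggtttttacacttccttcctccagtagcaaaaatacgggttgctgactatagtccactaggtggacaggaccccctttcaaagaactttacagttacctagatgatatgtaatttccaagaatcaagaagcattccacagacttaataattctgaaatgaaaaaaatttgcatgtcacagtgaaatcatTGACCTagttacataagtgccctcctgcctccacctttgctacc

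The Cxcr4 window held 1 KLF and 1 AHR match, the Ccr9 window 1 KLF match, and the first Ccr6 window 1 ROR match, on the minus strand of the letters. The second Ccr6 window held 0 matches, the Ccr4 window 1 KLF and 1 AP-1 match, and the Cxcr3 window 1 AHR match. Of 32841 windows of this length, 52% held the KLF motif, 6.75% the AP-1 motif, 14% the ROR motif, 28.2% the AHR motif and 3.17% the FOXO motif. These matches are a description of the letters. No binding was measured.

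Values are the authors' log2 expression per probe set. The array medians lay between 5.17 and 5.26, and replicates of a group correlated at r = 0.977 to 0.995 across probe sets. Xist, the transcript of the inactive X chromosome, was 11.7 to 12.3 on 4 arrays, replicate 1 of each group, and at most 5.10 on the other 8, so replicate 1 held female-type cells in every group and replicates 2 and 3 male-type cells. Whether replicates 2 and 3 came from separate animals is not stated. The β-actin probe sets at the 3′ end exceeded those at the 5′ end by 0.499 to 0.720 log2 in the 2 µg MCC group, against 0.809 to 1.62 after 2 µg of 102S, 0.742 to 2.33 after 0.2 µg of MCC and 0.759 to 2.35 after 0.2 µg of 102S. A larger gap is the usual sign of more degraded RNA, so the 2 µg MCC arrays had the lowest gap and did not overlap with any other group. T cell markers averaged 9.80 to 10.4 on every array, while those of B cells averaged 4.45 to 4.98 and of myeloid and dendritic cells 3.84 to 4.38, near the filter level of 4.48. Among the B cell markers Ighm stood apart, at 10.4 to 11.5 on every array. The CD8 T cell and NK cell markers averaged 4.93 to 6.06. The source of these signals in the sorted cells was not tested.

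Of the 6 receptor genes tested, S1pr1, Cxcr4 and Ccr9 were lower and Ccr6 was higher after MCC than after 102S at the same dose, while Ccr7 and Cxcr3 passed no test. This held at 2 µg, where 3 receptors were called lower and 1 higher, beside 6.23% and 4.04% of all 13556 probe sets tested. It held at 0.2 µg too, with 3 lower and 1 higher beside 6.45% and 7.85%. The call of Ccr6 at 0.2 µg was near the threshold (limma adjusted p = 0.0482) and held on leaving out 4 of the 12 arrays in turn. That of S1pr1 at 2 µg held on leaving out 8 of the 12. The median difference of the 6 genes was -0.66 log2 at 2 µg and -0.48 at 0.2 µg, against -0.04 over all probe sets at each dose. The genes, and the lists below, were chosen with earlier results of these data known. Setting their counts and medians beside those of all probe sets, here and below, is therefore a description and no test. Calls are adjusted p-values of limma under 0.05 (Benjamini-Hochberg over all probe sets tested), and the comparisons share arrays. At 2 µg the replicate number paired the arrays, and with it as a replicate block the same 4 receptor calls stood beside 996 probe sets called higher and 1489 lower, against 548 and 844 without it. With the β-actin gap as a covariate, the 4 calls at 2 µg held, at -1.67 log2 for S1pr1, -2.97 for Cxcr4, -3.12 for Ccr9 and 2.86 for Ccr6.

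Dose moved fewer of these genes. From 0.2 to 2 µg of MCC, Ccr6 rose and Ccr9 fell, 1 gene in each direction beside 0.708% of probe sets called higher and 1.05% called lower. With the replicate block, the same 2 receptor calls stood beside 911 higher and 652 lower, against 96 and 143. From 0.2 to 2 µg of 102S, Ccr9 alone of the 6 was called, lower, and 0 were called higher (0 also at an unadjusted p under 0.05), beside 0.509% lower and 2.66% higher over all. The median difference of the 6 genes was -0.05 log2 for the dose of MCC and -0.01 for that of 102S, against -0.01 and 0.00 over all probe sets.

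**Figure D1:**
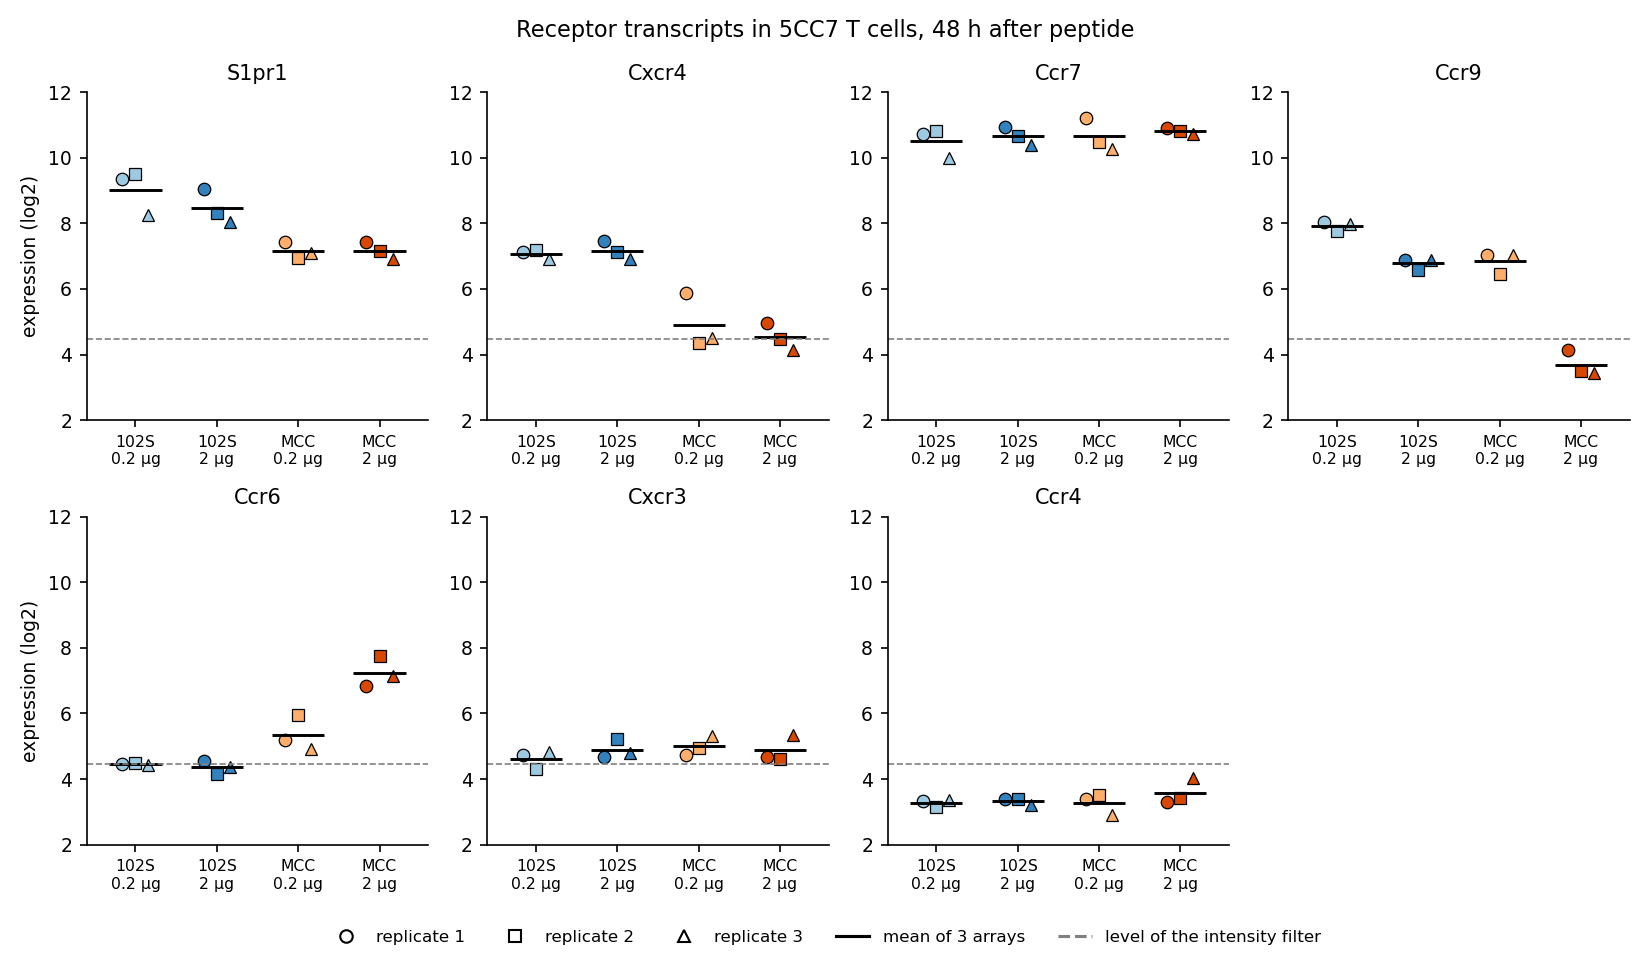
Expression (log2, y axis) of the 7 receptor genes in 5CC7 T cells 48 h after peptide, by group (x axis). Each point is an array, its shape the replicate number, the bar the mean of 3 arrays and the dashed line the filter level of 4.48. S1pr1 and Cxcr4 sit lower in both MCC groups, Ccr9 falls to 3.69 and Ccr6 rises to 7.24 in the 2 µg MCC group, and Ccr7 stays near 10.7 in all 4.

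S1pr1, the egress receptor, read 9.35, 9.50 and 8.24 log2 on replicates 1 to 3 of 0.2 µg of 102S, 9.05, 8.31 and 8.04 after 2 µg of 102S, 7.42, 6.95 and 7.08 after 0.2 µg of MCC, and 7.44, 7.15 and 6.92 after 2 µg of MCC. Every MCC array lay below every 102S array, and the 2 doses of each peptide overlapped. Group means were 9.03 ± 0.69, 8.47 ± 0.53, 7.15 ± 0.25 and 7.17 ± 0.26 (SD, n = 3 each, in the same order).

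The S1pr1 difference between MCC and 102S was -1.88 ± 0.32 log2 at 0.2 µg (standard error of the fit; 3.68-fold lower, limma adjusted p = 0.00206). At 2 µg it was -1.30 ± 0.32 (2.46-fold lower, adjusted p = 0.0242). In sorted bulk cells, fewer cells with a transcript and less of it per cell cannot be told apart. The call at 2 µg was lost on leaving out replicate 1 or 2 of 2 µg of 102S, or replicate 2 or 3 of 2 µg of MCC, with adjusted p up to 0.102. It was also lost on the male-type arrays alone (0.0555), while the call at 0.2 µg held on leaving out any 1 array (highest adjusted p 0.0138). The doses differed by -0.56 (95% interval -1.27 to 0.14) for 102S and 0.02 (-0.69 to 0.72) for MCC, neither a call. With the β-actin gap as a covariate, that of 102S was called (-0.62 ± 0.17, adjusted p = 0.0308).

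Cxcr4, the receptor for Cxcl12, read 7.12, 7.18 and 6.92 log2 after 0.2 µg of 102S and 7.45, 7.11 and 6.90 after 2 µg of 102S. It read 5.89, 4.35 and 4.51 after 0.2 µg of MCC and 4.97, 4.47 and 4.14 after 2 µg of MCC. All 6 arrays of 102S lay above all 6 of MCC, and the female-type replicate 1 array was the highest of both MCC groups. The means were 7.07 ± 0.14, 7.15 ± 0.28, 4.91 ± 0.85 and 4.52 ± 0.42 (SD, n = 3 each), the last barely above the filter level.

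MCC against 102S gave -2.63 ± 0.35 log2 for Cxcr4 at 2 µg (limma adjusted p = 0.000679). At 0.2 µg it gave -2.16 ± 0.35 (adjusted p = 0.00133). No fold is given, because 2 arrays after 2 µg of MCC and 1 after 0.2 µg lay under the filter level. Both calls held under each of the 15 alternatives and without any 1 array, with adjusted p up to 0.0196 at 0.2 µg. The dose difference was -0.39 for MCC (95% interval -1.15 to 0.37) and 0.08 for 102S (-0.68 to 0.84), and the groups overlapped. The peptide effect at 2 µg minus that at 0.2 µg was -0.47 ± 0.49 (limma adjusted p = 0.760).

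Ccr7, the lymph node homing receptor, was the brightest of the 7, with a mean over the 12 arrays at the 97.2nd percentile of all probe sets, although brightness is not comparable between probe sets. It read 10.7, 10.8 and 9.9996 log2 after 0.2 µg of 102S and 10.9, 10.6 and 10.4 after 2 µg of 102S. It read 11.2, 10.5 and 10.3 after 0.2 µg of MCC and 10.9, 10.8 and 10.7 after 2 µg of MCC. All 4 groups overlapped, with means of 10.51 ± 0.45, 10.65 ± 0.27, 10.65 ± 0.50 and 10.81 ± 0.09 (SD, n = 3).

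The Ccr7 difference between MCC and 102S was 0.16 (95% interval -0.38 to 0.70) at 2 µg and 0.13 (-0.41 to 0.67) at 0.2 µg. In each group the array with the lowest Ccr7 was replicate 3, which also had the largest β-actin gap of its group: 2.35, 1.62, 2.33 and 0.720 log2 in the same order. With that gap as a covariate the differences were 0.29 ± 0.07 at 0.2 µg (limma adjusted p = 0.00398), -0.18 ± 0.07 at 2 µg (0.0741), and -0.39 ± 0.08 between the doses of MCC (0.0117). Under the same covariate the peptide effect differed between doses by -0.47 ± 0.10 (adjusted p = 0.0197), so for Ccr7 calls appeared in that fit only. The part of RNA quality in the spread of Ccr7 was not tested otherwise.

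Ccr9, the gut homing receptor, was read by 3 probe sets, and the brightest (1427419_x_at) stands for it. It read 8.03, 7.77 and 7.98 log2 after 0.2 µg of 102S, 6.88, 6.58 and 6.87 after 2 µg of 102S, 7.03, 6.47 and 7.03 after 0.2 µg of MCC, and 4.14, 3.49 and 3.43 after 2 µg of MCC. The group of 0.2 µg of 102S was highest and that of 2 µg of MCC lowest, both without overlap, and the 2 groups between them overlapped. The means were 7.93 ± 0.14, 6.78 ± 0.17, 6.84 ± 0.32 and 3.69 ± 0.40 (SD, n = 3), the last under the filter level.

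MCC against 102S at 0.2 µg gave -1.08 ± 0.22 log2 for Ccr9 (2.12-fold lower, limma adjusted p = 0.00529), and 2 against 0.2 µg of 102S gave -1.15 ± 0.22 (2.22-fold lower, adjusted p = 0.0103). The second of these was lost on leaving out replicate 2 of 2 µg of 102S (adjusted p = 0.0711). Against the 2 µg MCC group the differences were -3.09 ± 0.22 from 2 µg of 102S (8.74e-06) and -3.16 ± 0.22 from 0.2 µg of MCC (1.96e-05). No fold is given for these, because 1 side lay below the filter level. With low values raised to that level, an alternative added after seeing the data, they were -2.30 and -2.37.

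The second probe set of Ccr9 (1421920_a_at) was also highest after 0.2 µg of 102S and lowest after 2 µg of MCC, with the other 2 groups overlapping. Its values were 7.28, 7.18 and 7.07 log2 after 0.2 µg of 102S, 6.13, 5.62 and 6.35 after 2 µg of 102S, 6.16, 5.65 and 6.17 after 0.2 µg of MCC, and 4.68, 4.41 and 5.08 after 2 µg of MCC. Here the steps were even. MCC against 102S gave -1.31 ± 0.23 at 2 µg (limma adjusted p = 0.00379) and -1.18 ± 0.23 at 0.2 µg (2.27-fold lower, adjusted p = 0.00440). Dose gave -1.27 ± 0.23 for MCC (adjusted p = 0.0166) and -1.15 ± 0.23 for 102S (2.21-fold lower, adjusted p = 0.0148).

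Both tested probe sets of Ccr9 thus fell in the same 4 comparisons of peptide or dose, but they differed on whether peptide and dose combined. By the brighter one the peptide effect was -2.01 ± 0.30 log2 stronger at 2 µg (limma adjusted p = 0.00855), by the second -0.12 ± 0.32 (adjusted p = 0.919), and by their mean -1.06 (adjusted p = 0.143). The third (1421919_a_at) averaged 4.76 ± 0.75, 3.80 ± 0.31, 3.57 ± 0.45 and 3.70 ± 0.62 (SD, n = 3), under the filter in all groups but the first. Fitted without the filter it gave 0 calls by limma in the 7 comparisons (3 at an unadjusted p under 0.05). It gave -1.19 ± 0.37 for MCC against 102S at 0.2 µg (adjusted p = 0.0762) and -0.96 ± 0.37 for the dose of 102S (0.405). It gave -0.09 ± 0.37 for MCC against 102S at 2 µg, 0.14 ± 0.37 for the dose of MCC and, opposite in sign to the others, 1.09 ± 0.53 for the interaction (0.782). The interaction of peptide and dose for Ccr9 therefore rests on 1 of its 3 probe sets.

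**Figure D2:**
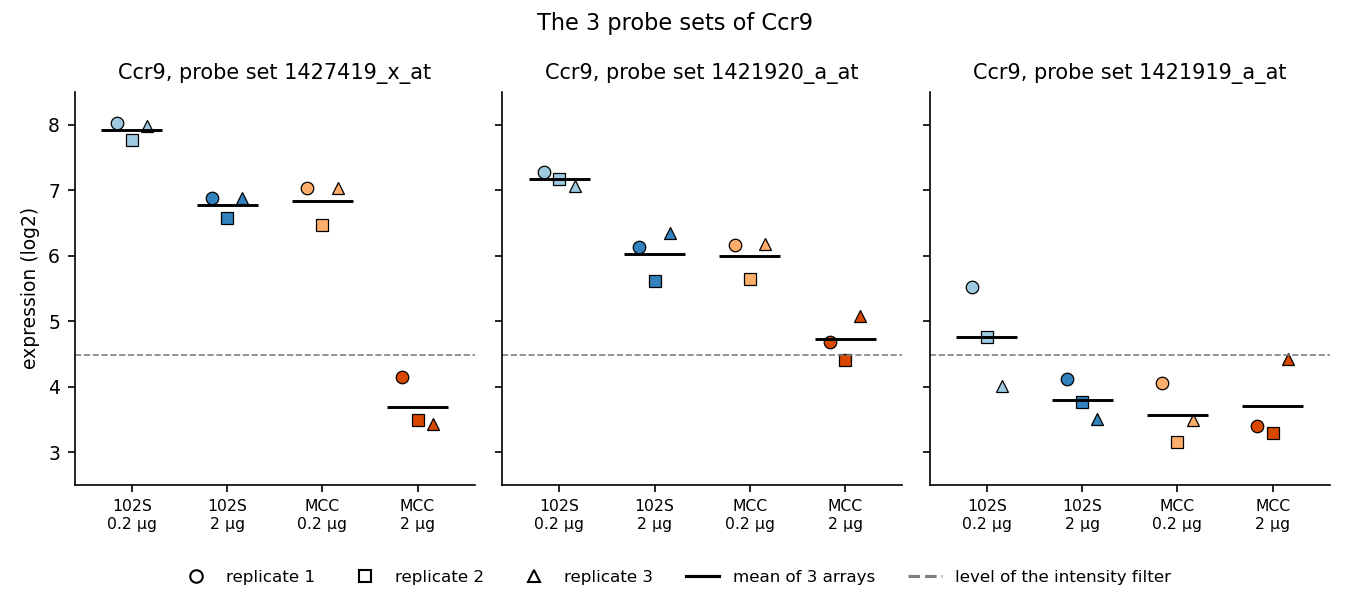
Expression (log2, y axis) of the 3 probe sets of Ccr9 by group (x axis), with points, bars and dashed line as in the plot of receptor levels. The first 2 fall from 0.2 µg of 102S to 2 µg of MCC, by 4.24 log2 in the left panel and 2.45 in the middle one, while the third lies mostly under the filter level.

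The average of CD8 T cell and NK cell markers was also highest after 0.2 µg of 102S and lowest after 2 µg of MCC. It was 5.85 to 6.06 log2 after 0.2 µg of 102S, 5.51 to 5.54 after 2 µg of 102S, 5.23 to 5.58 after 0.2 µg of MCC and 4.93 to 5.07 after 2 µg of MCC. Of the 8 listed 7 were on the array and 5 were tested, and Klrd1 moved most, from 8.63 ± 0.19 through 7.33 ± 0.19 and 6.27 ± 0.74 to 4.65 ± 0.57 (SD, n = 3). Prf1 averaged 6.56, 5.63, 5.33 and 5.19 in the same order, whereas Nkg7, at 6.29, 6.34, 6.60 and 6.24, did not follow it and was not called. Ncr1 and Klrk1 were at or under 3.42 on every array, and Cd8a (5.18 to 6.42) and Cd8b1 (7.03 to 8.31) had no call. The part of these markers in the Ccr9 result was not tested.

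Ccr6, the receptor for Ccl20, was the 1 receptor of the 6 that rose. It read 4.47, 4.49 and 4.43 log2 after 0.2 µg of 102S and 4.55, 4.15 and 4.38 after 2 µg of 102S. It read 5.18, 5.94 and 4.91 after 0.2 µg of MCC and 6.85, 7.74 and 7.14 after 2 µg of MCC. The 102S groups overlapped at the filter level, each MCC array lay above them, and the 2 MCC doses did not overlap. The means were 4.46 ± 0.03, 4.36 ± 0.20, 5.34 ± 0.54 and 7.24 ± 0.45 (SD, n = 3), with both 102S means under the filter level.

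From 0.2 to 2 µg of MCC, Ccr6 rose 3.73-fold (1.90 ± 0.27 log2, limma adjusted p = 0.00479). Against 102S the differences were 2.88 ± 0.27 at 2 µg (adjusted p = 9.49e-05) and 0.88 ± 0.27 at 0.2 µg (0.0482), with no fold given because the 102S side lay below the filter. The call at 0.2 µg was close to the threshold: it held under 9 of 15 alternatives and on leaving out 4 of the 12 arrays in turn. Without replicate 2 of 0.2 µg of MCC, the highest of that group, the difference was 0.58 (adjusted p = 0.204). Between the doses of 102S it was -0.11 (95% interval -0.69 to 0.48).

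The peptide effect on Ccr6 was larger at 2 µg than at 0.2 µg by 2.00 ± 0.38 log2 (limma adjusted p = 0.0316). For this interaction, 1 of the 6 receptors was called in the positive direction (Ccr6) and 1 in the negative (Ccr9), beside 0.0738% and 0.693% of all probe sets. That of Ccr6 was lost without 1 of 7 arrays in turn, with adjusted p up to 0.109: replicates 1 and 2 of 0.2 µg of 102S, 2 and 3 of 2 µg of 102S, 3 of 0.2 µg of MCC, and 2 and 3 of 2 µg of MCC. Its size ranged from 1.76 to 2.30 over these omissions.

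Ccr6 is also a receptor of B cells and regulatory T cells. The mean of the regulatory T cell markers was 4.15 to 4.20 log2 after 0.2 µg of 102S, 5.02 to 5.15 after 2 µg of 102S, 5.31 to 5.75 after 0.2 µg of MCC and 5.33 to 5.80 after 2 µg of MCC. Foxp3, their defining gene, was at or under 4.28 on every array and so below the filter, and the mean followed Ctla4, which activated T cells also express. Il2ra was also higher with MCC at 0.2 µg (0.74 ± 0.21, limma adjusted p = 0.0374). Ikzf2 lay under the filter level and averaged 3.17, 3.45, 3.77 and 4.10 in the same order of groups. Of the 10 B cell markers on the array 3 were tested. Cd79a, Ms4a1 and Pax5 averaged under the filter level in each group, Cd79b was higher after MCC at 0.2 µg (1.26 ± 0.33, limma adjusted p = 0.0228) and Cd22 averaged 4.75 to 4.90 in 3 groups and 5.75 ± 0.60 after 2 µg of MCC. Ighm, by far the brightest, went the other way, with means of 11.45 and 10.47 after 0.2 µg of 102S and of MCC, and 10.73 after 2 µg of MCC. It was lower after MCC at 0.2 µg (-0.98 ± 0.09, limma adjusted p = 1.82e-05) and after 2 µg of MCC than after 0.2 µg of 102S (-0.72 ± 0.09, adjusted p = 0.000117). The part of either cell type in the Ccr6 result was not tested.

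**Figure D3:**
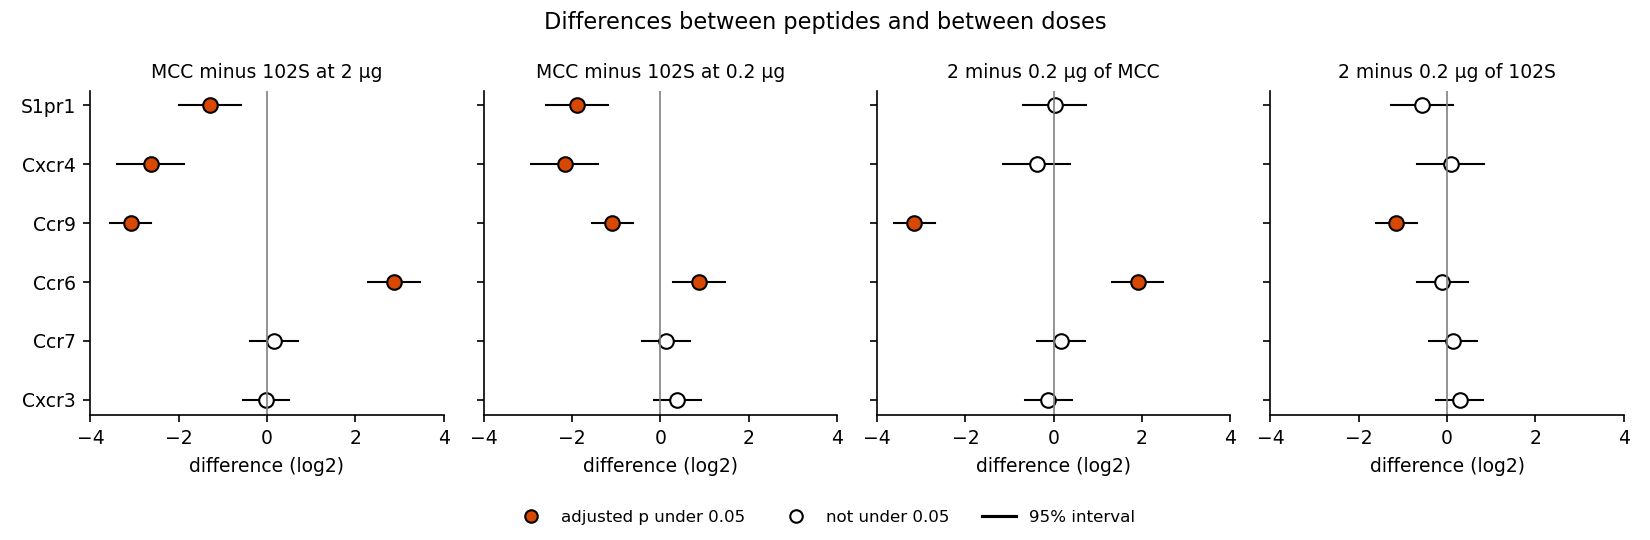
Differences in log2 expression (x axis, point and 95% interval of the limma fit) for the 6 tested receptor genes (y axis) in 4 comparisons. Filled points have an adjusted p under 0.05. S1pr1, Cxcr4 and Ccr9 lie below 0 and Ccr6 above 0 for MCC against 102S at both doses. Ccr9 alone is called both between the doses of MCC and between those of 102S.

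Cxcr3, the Th1 receptor, stayed close to the filter level. Its lowest and highest arrays were 4.29 and 5.34 log2, and the means were 4.62 ± 0.29, 4.90 ± 0.29, 5.00 ± 0.29 and 4.88 ± 0.40 (SD, n = 3). Every pair of groups overlapped, and the widest of the 4 differences between peptides or doses was 0.38 for MCC against 102S at 0.2 µg (95% interval -0.15 to 0.91, limma adjusted p = 0.340). Ccr4, the Th2 and regulatory T cell receptor, read between 2.90 and 4.04 on the 12 arrays, with means of 3.28 ± 0.11, 3.33 ± 0.10, 3.26 ± 0.32 and 3.58 ± 0.40. It lay at the 20.3rd percentile of probe sets. Fitted without the filter it gave 0 calls by limma (0 also at an unadjusted p under 0.05), with a difference of 0.25 (95% interval -0.18 to 0.69) at 2 µg. A level this low does not show that a receptor was absent.

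Further contrasts set unequal doses side by side, and they share arrays with those above. Between 0.2 µg of MCC and 2 µg of 102S, Ccr9 did not separate the groups (0.07, 95% interval -0.40 to 0.53), and the second probe set gave -0.04 (-0.53 to 0.46). Cxcr4 did (-2.24 ± 0.35 log2, limma adjusted p = 0.00687). S1pr1 (-1.32 ± 0.32, adjusted p = 0.0557) and Ccr6 (0.99 ± 0.27, adjusted p = 0.0842) did not pass, although their arrays did not overlap. The replicate number paired the arrays of these 2 groups, and with it as a replicate block both passed (adjusted p = 0.00245 and 0.0248). That is 1 receptor called lower and 0 higher, beside 0.915% and 1.56% of probe sets (124 and 212, or 664 and 483 with the replicate block), and at an unadjusted p under 0.05 it would be 2 lower and 1 higher. Fitted on these 6 arrays alone, Cxcr4 did not pass either (adjusted p = 0.0528). The extremes, 2 µg of MCC against 0.2 µg of 102S, gave -4.24 ± 0.22 for Ccr9, -2.55 ± 0.35 for Cxcr4, -1.86 ± 0.32 for S1pr1 and 2.78 ± 0.27 for Ccr6, each called. These 3 lower and 1 higher receptors stand beside 14% and 11.5% of all probe sets. The replicate number paired the arrays of the extremes too. With the replicate block the same 4 receptor calls stood beside 2607 probe sets called lower and 2208 higher, against 1893 and 1554.

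The order of the groups therefore differed by receptor. For Ccr9 it ran 0.2 µg of 102S, then 0.2 µg of MCC and 2 µg of 102S without separation, then 2 µg of MCC. For Cxcr4 and S1pr1 it split by peptide, with no dose difference called in the main fit. S1pr1 was called for the dose of 102S with the β-actin gap as a covariate. For Ccr6 the 102S groups overlapped at the filter level, and the MCC doses followed in order. The mean of Cxcr4 after 2 µg of MCC also lay near that level. A dose effect could go unseen at such low values. The orders were not tested against each other. Over the 12 arrays, S1pr1 and Cxcr4 correlated at r = 0.902, Ccr9 and Ccr6 at -0.922 and Ccr6 and Cxcr4 at -0.826, a description over arrays of shared groups.

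Other chemokine and chemoattractant receptors were mostly dim: of 25 listed, 19 were on the array and 4 were tested. Cxcr5, which draws cells to B cell follicles, averaged 3.71 ± 0.30 log2 after 0.2 µg of 102S, below the filter, and 7.15 ± 0.32, 6.90 ± 0.37 and 7.56 ± 0.34 in the other groups (SD, n = 3). Cxcr6, a receptor of effector cells, followed with 4.80 ± 0.69 against 6.86 ± 0.33, 6.92 ± 0.63 and 7.56 ± 0.37. Both rose with MCC over 102S at 0.2 µg and with the dose of 102S, 2 of 4 tested genes in each case. Of all probe sets 7.85% and 2.66% were called higher there. By limma 0 of 4 were called for MCC against 102S at 2 µg or for the dose of MCC (0 and 1 at an unadjusted p under 0.05). Over all probe sets 4.04% were called higher and 6.23% lower at 2 µg, and 0.708% and 1.05% for the dose of MCC. At such shares 0 of 4 says little about the list. For MCC over 102S at 0.2 µg and the dose of 102S, Cxcr6 differed by 2.13 ± 0.37 (limma adjusted p = 0.00206) and 2.07 ± 0.37 (0.00722). Cxcr5 differed by 3.19 ± 0.25 (4.75e-06) and 3.44 ± 0.25 (1.30e-05). The peptide effect on Cxcr5 was -2.78 ± 0.35 at 2 µg relative to 0.2 µg (adjusted p = 0.00231), opposite in sign to the interaction of Ccr6.

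Cxcr5 was thus apart in the group of 0.2 µg of 102S, Ccr6 most in that of 2 µg of MCC, and Cxcr4 split by peptide. Of 31 chemokine ligands listed, 29 were on the array and 7 were tested. By limma 0 of the 7 were called in any of the 7 comparisons, where 0.0738% to 14% of all probe sets were called higher or lower. Of these 49 tests 4 had an unadjusted p under 0.05. Ccl20, the ligand of Ccr6, lay at or under 4.48 on every array and Cxcl12, that of Cxcr4, at or under 3.85, whereas Ccl25, that of Ccr9, averaged 5.28 to 5.68.

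Among 10 genes of sphingosine 1-phosphate and egress on the array 5 were tested, and Klf2 led them. Klf2 averaged 10.28 ± 0.13 log2 after 0.2 µg of 102S, 9.27 ± 0.26 after 2 µg of 102S, 6.95 ± 0.20 after 0.2 µg of MCC and 7.70 ± 0.28 after 2 µg of MCC (SD, n = 3). It was 10.1-fold lower after MCC at 0.2 µg (-3.33 ± 0.17, limma adjusted p = 3.12e-07) and 2.95-fold lower at 2 µg (-1.56 ± 0.17, adjusted p = 0.000221). More 102S lowered it (-1.02 ± 0.17, adjusted p = 0.00562), while more MCC raised it (0.76 ± 0.17, adjusted p = 0.0496). The 2 peptide effects differed by 1.77 ± 0.24 (adjusted p = 0.00471), whereas those of S1pr1 differed by 0.58 ± 0.46 (adjusted p = 0.693).

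S1pr4, another receptor of this lipid, fell 1.99-fold with MCC at 0.2 µg (-0.99 ± 0.17, limma adjusted p = 0.00233), as did Sgpp1, a phosphatase of sphingosine 1-phosphate, by 1.34-fold (-0.42 ± 0.12, adjusted p = 0.0324). At 0.2 µg 3 of the 5 fell and 0 rose, beside 6.45% of all probe sets called lower and 7.85% higher. At 2 µg 1 fell and 0 rose, beside 6.23% and 4.04%. At an unadjusted p under 0.05, 0 rose at either dose. With 5 genes tested, 0 rising is near the shares called higher. The medians were -0.46 and -0.33, against -0.04 over all probe sets at each dose. Sphk2 and Sgpl1, which make and break down the lipid, passed in 0 of the 7 comparisons, with the lowest adjusted p for MCC against 102S at 0.2 µg (0.143 and 0.119; unadjusted 0.0355 and 0.0265).

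Of 22 signalling and desensitization genes on the array 19 were tested. With MCC over 102S at 0.2 µg 4 rose and 4 fell, beside 7.85% of all probe sets called higher and 6.45% lower. At 2 µg 0 rose (0 also at an unadjusted p under 0.05) and 2 fell, beside 4.04% and 6.23%. With 19 genes, the counts at 2 µg lie near those shares. The medians were 0.04 and -0.06, against -0.04 over all probe sets. Rgs1, which shortens G protein signals of chemokine receptors, averaged 5.61 ± 0.22 log2 after 0.2 µg of 102S and 6.84 to 7.43 elsewhere, and rose 2.33-fold with MCC at 0.2 µg (1.22 ± 0.22, limma adjusted p = 0.00306). Rgs2 fell with MCC at 2 µg, 2.60-fold (-1.38 ± 0.24, adjusted p = 0.00397). Arrb2, a β-arrestin that takes receptors out of the membrane, fell 1.63-fold at 2 µg (adjusted p = 0.0113) and 1.73-fold at 0.2 µg (0.00411). Grk6, a receptor kinase, fell 1.64-fold at 0.2 µg (adjusted p = 0.00593).

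Among 24 tested migration effectors 2 rose and 3 fell with MCC at each dose, beside 4.04% higher and 6.23% lower of all probe sets at 2 µg and 7.85% and 6.45% at 0.2 µg. Their median difference was 0.09 at 2 µg and -0.15 at 0.2 µg, against -0.04 over all probe sets at each dose. Tiam1, an activator of Rac, averaged 4.81 ± 0.12, 5.46 ± 0.12, 7.42 ± 0.25 and 8.39 ± 0.09 log2 (SD, n = 3), rising in every one of the 6 comparisons of groups. It was 7.64-fold higher with MCC at 2 µg (2.93 ± 0.15, limma adjusted p = 6.49e-07) and 1.97-fold higher with more MCC (adjusted p = 0.00748). Rasgrp2, which activates Rap1 downstream of chemokine receptors, was 3.19-fold lower with MCC at 2 µg (-1.67 ± 0.29, adjusted p = 0.00357) and 4.83-fold lower at 0.2 µg (-2.27 ± 0.29, adjusted p = 0.000205). Like S1pr1 and Cxcr4 it split by peptide, at 8.35 and 7.92 with 102S against 6.08 and 6.25 with MCC.

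The integrin subunits of gut homing were read beside Ccr9. Itga4 was lower with MCC at 2 µg (-1.08 ± 0.24, limma adjusted p = 0.0147), where its mean of 4.37 ± 0.47 (SD, n = 3) lay under the filter level. Itgb7 was 1.99-fold lower with MCC at 0.2 µg (-0.99 ± 0.23, adjusted p = 0.0132) and did not pass at 2 µg (-0.41 ± 0.23, adjusted p = 0.321). Itgal, the α subunit of LFA-1, was highest after 2 µg of MCC, above 0.2 µg of 102S by 1.58 ± 0.30 log2 (limma adjusted p = 0.00220).

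Of 15 tested transcription factors tied to these receptors, a list that also holds Klf2, 1 rose and 3 fell with MCC at 2 µg. Of all probe sets 4.04% were called higher and 6.23% lower there. At 0.2 µg 2 rose and 1 fell, beside 7.85% and 6.45%. Their median differences were 0.11 and -0.07. Besides Klf2, Foxo1 (-0.31 ± 0.08 log2, limma adjusted p = 0.0261) and Foxo3 (-0.54 ± 0.12, adjusted p = 0.0160) fell at 2 µg. Both are factors of quiescent T cells. Ahr, the aryl hydrocarbon receptor, was higher with MCC at 2 µg (1.28 ± 0.31, adjusted p = 0.0202) and at 0.2 µg (1.97 ± 0.31, adjusted p = 0.00103), where the 102S means were 4.56 and 4.10, the second under the filter level. Bcl6, which directs follicular helper cells, was 1.97-fold higher with MCC at 0.2 µg (adjusted p = 0.000487) and 2.25-fold higher with more 102S (0.000394), averaging 6.86 after 0.2 µg of 102S and 7.78 to 8.04 in the other groups.

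**Figure D4:**
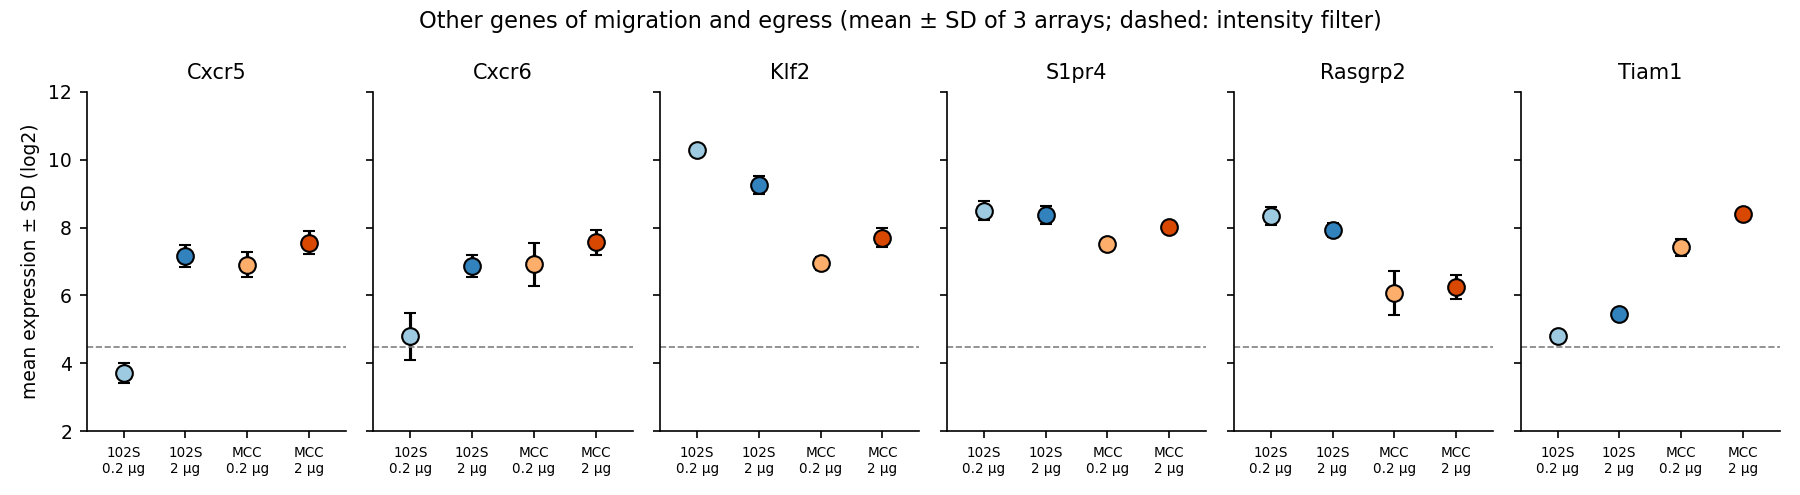
Mean expression (log2, y axis; error bars are the SD of 3 arrays) of 6 other genes of migration and egress by group (x axis), with the filter level of 4.48 dashed. Cxcr5 and Cxcr6 are lowest after 0.2 µg of 102S, Klf2, S1pr4 and Rasgrp2 have their lowest mean after 0.2 µg of MCC, and Tiam1 climbs from 4.81 to 8.39.

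The genes most like each receptor were ranked by Pearson's r over the 12 arrays among 7944 other genes, as a description. Nearest to Cxcr4 were Rcbtb2 (0.981), Camk1d (0.971) and Znrf2 (0.970), and nearest to S1pr1 were Ccdc88c (0.981), Dnttip2 (0.974) and Yae1d1 (0.973). Rcbtb2 averaged 8.75 and 8.81 log2 in the 102S groups against 7.83 and 7.68 in the MCC groups, the split seen in Cxcr4. Nearest to Ccr9 were Cnn3 (0.978), Pard6g (0.965) and Rnf130 (0.960), and Cnn3 averaged 9.86, 9.30, 9.23 and 7.99 in the order of groups used above. Nearest to Ccr6 were Endod1 (0.962), Ptpn11 (0.950) and Tmem38b (0.948), with Endod1 at 4.78, 4.90, 5.94 and 7.33.

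For Ccr7 and Cxcr3 r was high within the groups as well as over the group means. All groups of both genes overlapped, and the like genes were picked by r on these same arrays. A high r within groups thus follows largely from the choice and is no further result. Ccr7 followed Eif4b (0.977), Gspt1 (0.962) and Nudt4 (0.959), and its r with Eif4b was 0.940 over the 4 group means and 0.982 after these were removed. Cxcr3 followed Fech (0.905), Slc13a2 (0.896) and Hrc (0.894), with 0.967 over the means and 0.889 after the same step for Fech. S1pr1 and Ccdc88c kept 0.945 after it too. For Ccr9 and Pard6g the same step left -0.246, so the likeness of this pair came from the group means. Ccr9 kept 0.575 with Cnn3 and 0.705 with Rnf130. Cxcr4 kept 0.795 to 0.898 with its nearest genes, and Ccr6 0.446 to 0.717.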

How the data were processed

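The deposited table holds 1 log2 expression value per probe set of an Affymetrix mouse array and sample. The scale was read from the values (1.86 to 14.7). Per the labels' protocols, 100 ng of total RNA was labelled with a 3′ IVT kit, and the submitters' processing notes name GCOS 1.4. The authors' probe summary, background correction and scaling are not given in the sources used here. Probe sets took the gene symbol of the platform annotation where it gave 1. Tests kept the 13556 non-control probe sets whose mean reached the 40th percentile (log2 4.48). The probe set of highest mean stood for a gene.

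The values were fitted as deposited with limma 3.58.1 in R 4.3.3 (lmFit, eBayes with an intensity trend, 4 group means, 12 arrays). Tests were two-sided, with Benjamini-Hochberg adjustment over all 13556. The ± of differences is the standard error of the fit. The fit was tested on simulated data. Groups with a mean or an array under the filter level enter differences, but no fold is given from them. Replicate numbers were taken to pair 2 groups where every same-numbered pair of arrays deviated from its group means together (r above 0.1). That held for 4 of the 6 pairs of groups, all but the 2 doses of 102S and the 2 peptides at 0.2 µg. Array number, not read depth, limits precision: the median standard error of a difference was 0.18 log2. Alternatives were other scalings, filters and variance models, replicate and sex-type blocks, male-type arrays only, the β-actin gap, other probe sets and leaving out arrays.

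The members and gene lists were chosen with earlier results of these data known. Named were all members, the 3 genes of highest r with each tested member, and called genes of the lists. The last were taken from up to 4 per list and comparison by smallest p. Not all of these are described, and Rgs10 and Rap1b are among those left out. Values given beyond this rule, such as markers and list genes that passed no test, were chosen after they were seen. Lists: other receptors, ligands, egress, signalling, migration effectors, transcription factors, and markers of 6 cell types. Erythroid and platelet markers averaged 3.24 to 4.02 log2, with 0 of 4 tested.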

Additional observations from a re-analysis of the deposited data

Results flagged for a closer look

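For 2 receptor genes the effect of the peptide differed between the doses by the interaction term of the fit. For Ccr9, MCC minus 102S at 2 µg was more negative than at 0.2 µg by -2.01 ± 0.30 log2 (limma adjusted p = 0.00855), and 12 of 14 alternatives kept that call. The second probe set (-0.12, adjusted p = 0.919) and the mean of both tested probe sets (-1.06, adjusted p = 0.143) did not. For Ccr6 the same term was 2.00 ± 0.38 log2 (adjusted p = 0.0316), called under 12 of 14 alternatives and on leaving out 5 of the 12 arrays in turn. It was not called on the male-type arrays alone (2.21, adjusted p = 0.0588) or without the 2 arrays of largest β-actin gap (1.80, adjusted p = 0.0938). Both terms include group means below the filter level, so their sizes are inexact. With low values raised to that level they were -1.22 (adjusted p = 0.0417) and 1.88 (adjusted p = 0.0370).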

How the results depend on the processing

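No alternative and no omitted array turned the sign of a called receptor difference. Differences that passed no test changed sign as follows. With quantile normalization, S1pr1 between the doses of MCC was -0.014 and Ccr7 for 0.2 µg of MCC minus 2 µg of 102S was 0.012. On male-type arrays, Ccr7 at 0.2 µg was -0.041 and Cxcr4 between the doses of 102S -0.043. With the β-actin gap as covariate, Ccr7 was -0.18 at 2 µg, -0.39 between the doses of MCC, 0.21 for 0.2 µg of MCC minus 2 µg of 102S, -0.10 between the extremes and -0.47 for the interaction, S1pr1 was -0.59 between the doses of MCC, and Cxcr3 was 0.14 at 2 µg, 0.14 between the doses of MCC and -4e-04 for 0.2 µg of MCC minus 2 µg of 102S. Without the 2 arrays of largest gap, the dose of MCC gave -0.029 for Ccr7, -0.015 for S1pr1 and 0.038 for Cxcr3, the dose of 102S gave -0.12 for Ccr7, and 0.2 µg of MCC minus 2 µg of 102S gave 0.19 for Ccr7, -0.027 for Ccr9 and -0.059 for Cxcr3. The second probe set of Ccr9 gave -0.037 there, and raising low values gave 0.021 for Ccr6 between the doses of 102S (both added after seeing the data). Leaving out 1 array in turn, the ranges that crossed 0 were, for Cxcr3, -0.25 to 0.14 at 2 µg, -0.35 to 0.038 for the dose of MCC and -0.059 to 0.26 for 0.2 µg of MCC minus 2 µg of 102S. For Ccr7 they were -0.15 to 0.33 at 0.2 µg, -0.029 to 0.44 and -0.12 to 0.29 for the doses of MCC and 102S, -0.28 to 0.19 for 0.2 µg of MCC minus 2 µg of 102S and -0.17 to 0.31 for the interaction. For Cxcr4 they were -0.67 to 0.10 and -0.067 to 0.21 for the doses of MCC and 102S and -0.75 to 0.016 for the interaction, for S1pr1 -0.11 to 0.16 for the dose of MCC, for Ccr9 -0.034 to 0.25 for 0.2 µg of MCC minus 2 µg of 102S, and for Ccr6 -0.20 to 2e-04 for the dose of 102S. The cause was not tested.

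Counts of called receptors changed by over 1.5 times in 3 comparisons. For 0.2 µg of MCC minus 2 µg of 102S the 1 call became 2 with quantile normalization, with arrays centred on their median and without the 2 arrays of largest gap, 3 with the replicate block, with sex type as a block and with the gap as covariate, and 0 on the 6 arrays alone. Leaving out 1 array gave 1 to 2. For the interaction the 2 calls became 1 on male-type arrays, without the 2 arrays of largest gap, with the mean of probe sets and with the second probe set of Ccr9; leaving out 1 array gave 1 to 2. For the dose of 102S the 1 call became 2 with the gap as covariate, and leaving out 1 array gave 0 to 1. Elsewhere they moved by 1 at most: at 2 µg the 4 calls became 3 on male-type arrays and in some omissions. At 0.2 µg they became 3 without a filter or with that at the 25th percentile, with either rescaling, on the arrays compared, on male-type arrays and in some omissions, and 5 with the gap as covariate. The latter also gave 3 for the dose of MCC and for the interaction, in place of 2. Same-numbered arrays deviated together at r above 0.1 in 16 of 18 pairs (range -0.287 to 0.822), and 10 of 12 arrays correlated best with their own number. With the replicate block, S1pr1 and Ccr6 for 0.2 µg of MCC minus 2 µg of 102S had adjusted p-values of 0.00245 and 0.0248, and no other receptor call changed. Centring arrays on their median moved the split of all calls from 1064 higher and 875 lower to 957 and 1188 at 0.2 µg, and from 212 and 124 to 196 and 187 for 0.2 µg of MCC minus 2 µg of 102S.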
